A study of Mus musculus with 4 samples.

Results

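The 34 genes described here are those of the aminoacyl-tRNA synthetases of the cytosol (20 genes), and of the transcription factor ATF4 with its stress and serine synthesis targets (14 genes), taken by gene symbol from the 23285 genes of the table. RNA was sequenced from mouse thymocytes sorted at the DN3 stage, the CD4-negative and CD8-negative stage at which beta selection takes place. The donors' fetal liver cells carried either the Gata3(g/g) genotype, labelled as a hypomorph of the T cell transcription factor gene Gata3, or the wild-type genotype (WT), and DN3 cells were taken 16 weeks after transfer into irradiated recipients. Each genotype had 2 libraries on the C57BL/6 strain, with the replicates 1 of both genotypes in one sequencing run (run 1) and the replicates 2 in another (run 2). The sources used here give neither the recipients' strain nor how donor cells were told from cells left in the host, and nothing in the labels says that libraries of a genotype came from separate animals. The p-values therefore concern the spread among these libraries, which may be technical.

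Aminoacyl-tRNA synthetases load each amino acid onto its tRNA and so feed the ribosome. Several of them sit together in the multi-synthetase complex, and the others work outside it. When amino acids run short or the endoplasmic reticulum is stressed, kinases phosphorylate the translation factor eIF2. General translation then slows while the ATF4 protein is made, and ATF4 pairs with C/EBP factors to switch on genes for amino acid supply, many synthetases and, under lasting stress, the death-related factor CHOP (Ddit3). Much of this control lies in the translation of Atf4, which a level of RNA does not show. In thymocytes, passing beta selection brings growth and with it a higher demand for amino acids.

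ATF4 and C/EBP dimers bind an amino acid response motif, searched here as TGATGNAAN on both strands in RefSeq promoter windows of build GRCm38.p6 (mm10), from 250 bases before to 50 bases after the start of the gene. Of the 34 genes, 27 had a window, and Lars, Rars, Cars, Hars, Nars, Vars and Wars had none. The motif stood in a window of 8 of the 27 genes (29.6%), against 4.5% of the 27025 genes with a window. Known ATF4 targets were part of the choice of these genes, so this share is a description. One match in each of these 8 genes is shown because many of these genes are studied as ATF4 targets, and the windows of Psat1 and Ddit4 held neither this motif nor the E-box. Each has 10 bases on either side and is written 5′ to 3′ on the strand of the gene, with the 9-base match in capitals. Capitals that end in CATCA are the motif read on the opposite strand.
Asns (chr6:7693214-7693242, minus strand): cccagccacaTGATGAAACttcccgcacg
Chac1 (chr2:119351038-119351066, plus strand): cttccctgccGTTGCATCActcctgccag
Trib3 (chr2:152344029-152344057, minus strand): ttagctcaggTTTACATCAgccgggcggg
Aars (chr8:111033840-111033868, plus strand): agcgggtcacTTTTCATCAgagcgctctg
Gars (chr6:55037960-55037988, plus strand): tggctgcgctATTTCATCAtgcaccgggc
Iars (chr13:49682126-49682154, plus strand): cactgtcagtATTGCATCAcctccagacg
Tars (chr15:11399656-11399684, minus strand): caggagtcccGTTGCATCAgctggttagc
Yars (chr4:129189896-129189924, plus strand): cgagctcagcTGATGCAACccgacgggac

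The matches shown for Aars, Iars, Yars and Trib3 began 3 to 13 bases after the start, and the others shown between 16 and 194 bases before it. The second motif searched, the E-box CACGTG, is the site of MYC-MAX dimers and stood in a window of 4 of the 27 genes (14.8%), Aars, Farsb, Iars and Tars, against 8.09% of all genes with a window. A match says only that the letters are present in the window.

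The RNA of the altered gene was higher, not lower, under the hypomorph label. Gata3 stood at 120 and 96.1 FPKM in the Gata3(g/g)-labelled libraries, against 62.4 and 58.5 FPKM in the WT libraries. Gene-level values cannot say which stretch of the altered allele gave the fragments. Directions given for Gata3(g/g) therefore rest on the labels. The libraries held between 14331705 and 26901913 fragments. The 8 DN3 markers, among them Il2ra, Ptcra, Rag1 and Dntt, were detected in each library and summed to 2569 and 2547 FPKM in the Gata3(g/g)-labelled libraries, against 2082 and 2131 FPKM in WT. They did not move as one: by edgeR with the replicate block described with the genotype results, Il2ra rose by 0.98 on the log2 scale (edgeR adjusted p = 0.00262), and the other 7 did not pass, with Rag1 at −0.40 and Cd3e at −0.20. The B cell factor gene Pax5 was listed at 0 in 3 of the 4 libraries. Markers of B cells summed to between 0.247 and 0.346 FPKM over 5 genes and those of NK cells to between 0.152 and 0.525 FPKM over 4 genes. The 6 myeloid markers summed to 22.2 and 17.0 FPKM in the Gata3(g/g)-labelled libraries, against 13.1 and 10.6 FPKM in WT. Lyz2 alone gave 18.7 and 13.6 FPKM in the Gata3(g/g)-labelled libraries, against 9.93 and 4.20 FPKM in WT, and rose (edgeR adjusted p = 0.000610). The other of the 2 myeloid markers tested had a log2 fold change of −0.43, was lower within run 2 but not within run 1, and did not pass. Of these markers Cd14 was listed at 0 in Gata3(g/g) replicate 2 and WT replicate 1, and Emr1 in WT replicate 2. The 5 markers of double-positive and mature T cells summed to 12.2 and 10.9 FPKM in the Gata3(g/g)-labelled libraries, against 7.87 and 4.61 FPKM in WT, with none at 0. Of the 3 of these that were tested, Cd8a (edgeR adjusted p = 0.0110) and Cd8b1 (edgeR adjusted p = 0.00135) rose. The third went the other way, with a log2 fold change of −0.42, lower within both runs, and did not pass. The 5 stromal markers summed to 8.69 and 10.04 FPKM in the Gata3(g/g)-labelled libraries, against 12.9 and 7.50 FPKM in WT. Their part in the differences between genotypes was not tested. In such bulk samples, fewer cells of a type and less RNA per cell cannot be told apart.

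The synthetases were expressed throughout, from 7.45 to 183 FPKM over the 20 genes and 4 libraries. FPKM is a fragment count per transcript length and library size, so these levels can be set against each other. Dars (aspartate) was the highest, with 119 and 170 FPKM in the Gata3(g/g)-labelled libraries, against 135 and 183 FPKM in WT. Qars (glutamine), Vars (valine) and Rars (arginine) followed with means over the 4 libraries of 51.7, 49.6 and 45.1 FPKM, which lay within the spread of one another. Aars (alanine) had the lowest mean, at 8.88 and 9.28 FPKM in the Gata3(g/g)-labelled libraries, against 9.25 and 10.2 FPKM in WT, and Cars (cysteine), with the next mean of 9.58 FPKM, overlapped Aars in its range over the libraries. Farsa and Farsb, the paired subunits of the phenylalanine enzyme, had like levels, with means of 20.1 and 21.8 FPKM. Atf4 was among the most abundant of the 34 genes, at 106 and 70.4 FPKM in the Gata3(g/g)-labelled libraries, against 132 and 71.8 FPKM in WT.

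The classical ATF4 targets Asns, Chac1 and Trib3 were, in contrast, barely detected. Asns, the asparagine synthetase, had 48 and 6 fragments in the Gata3(g/g)-labelled libraries, against 60 and 8 fragments in WT, or between 0.0967 and 0.860 FPKM. Chac1, which degrades glutathione, had 12 and 1 fragments in the Gata3(g/g)-labelled libraries, against 6 and 10 fragments in WT. Trib3, a pseudokinase that restrains the response, had 43 and 16 fragments in the Gata3(g/g)-labelled libraries, against 9 and 6 fragments in WT. On these few fragments its libraries did not overlap between the genotypes, with both labelled Gata3(g/g) above both WT. Asns, Chac1 and Trib3 lay under the filter of a mean of 1 FPKM and were not tested, and the other 31 passed it. Of all genes tested, which leave Trib3 out, 14.2% were higher without overlap in the Gata3(g/g)-labelled libraries. Among 30 further ATF4 targets, 16 lay under the same filter, including the cystine transporter gene Slc7a11 and the sestrin gene Sesn2. Lying under it was common, since 10224 of the 23285 genes of the table passed, so this count is not particular to ATF4 targets. The highest value of the 16 in any library was 1.03 FPKM, that of Atf3, an immediate-early gene as well. Ddit3, in contrast, was expressed at 21.8 and 15.8 FPKM in the Gata3(g/g)-labelled libraries, against 26.7 and 14.0 FPKM in WT, which overlapped. The authors' deposited comparison gives Ddit3 and the synthetase gene Mars the same locus, chromosome 10 from 127290793 to 127311786. Whether fragments of Mars add to the level of Ddit3 was not tested.

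**Figure D1:**
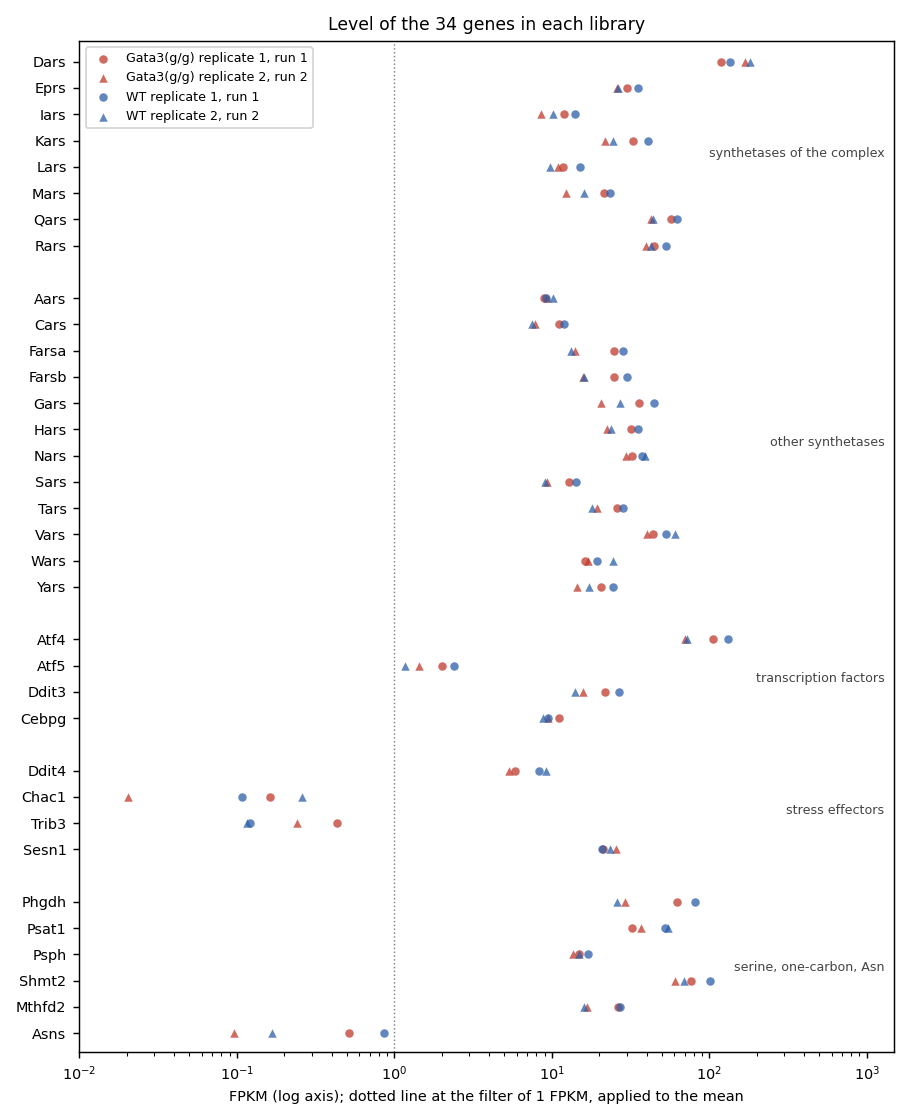
FPKM on a log axis for each of the 34 genes in each library, grouped by role, with circles for run 1, triangles for run 2, red for the libraries labelled Gata3(g/g) and blue for WT. Dars lies above the other synthetases, Asns, Chac1 and Trib3 lie left of the dotted line at 1 FPKM, and for many genes circles and triangles lie farther apart than red and blue.

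Between the genotypes, 0 of the 31 tested genes passed in the main model, which held genotype alone. With the replicate number as a block 2 passed, Psat1 and Ddit4, and both fell. The count of 2 comes from edgeR's quasi-likelihood F test with this block, which compares the genotypes within runs, at an adjusted p under 0.05 (Benjamini-Hochberg over all 10224 genes tested). The share of 6.45% was near that of all genes tested, of which 6.9% passed in either direction, 2.99% falling and 3.9% rising. Unless said otherwise, edgeR p-values and fold changes from here on are those with the block. The main model called 0 of all 10224 genes tested. Each gene of the further lists said below to rise or fall between the genotypes therefore passed by edgeR only with the block. Without the block the same test called 0 of 31, with 2 at an unadjusted p under 0.05, against 0% and 3.84% of all genes, and DESeq2 and limma without the block called 0 too, against 0.861% and 0.0489% of all genes. With the block DESeq2 called 1 and limma 0 of the 31, against 4.08% and 0.176% of all genes. Psat1 was the 1 gene of the 31 with a q-value under 0.05 in the authors' deposited table, against 4.1% of the 11123 genes tested there.

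Psat1 encodes phosphoserine aminotransferase, the second enzyme of serine synthesis, on chromosome 19 from 15905123 to 15925059 (mm10). It measured 32.5 and 36.9 FPKM in the Gata3(g/g)-labelled libraries (34.7 ± 3.13, SD, n = 2), against 52.6 and 55.1 FPKM in WT (53.9 ± 1.79, SD, n = 2). Both Gata3(g/g)-labelled libraries lay under both WT libraries. The log2 fold change was −0.63 ± 0.121 (SE, edgeR adjusted p = 0.00339), and the fall was seen within run 1 (−0.68) and within run 2 (−0.59). By limma with the block, on log2(FPKM + 1), the log2 fold change was −0.62 and the adjusted p was 0.161. The authors' deposited table gave −0.64 with a q-value of 0.0120.

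Ddit4 encodes REDD1, an inhibitor of the growth kinase complex mTORC1 that many stresses and glucocorticoids induce, on chromosome 10 from 59949675 to 59951770. It measured 5.83 and 5.35 FPKM in the Gata3(g/g)-labelled libraries (5.59 ± 0.339, SD, n = 2), against 8.29 and 9.19 FPKM in WT (8.74 ± 0.632, SD, n = 2), from 286 to 499 fragments. Again both libraries labelled Gata3(g/g) lay under both WT libraries. The log2 fold change was −0.64 ± 0.173 (SE, edgeR adjusted p = 0.0347), and the within-run values were −0.48 and −0.79. The call was lost by DESeq2 with the block (adjusted p = 0.187), by limma with the block (adjusted p = 0.188), with scaling to total fragments alone (adjusted p = 0.0568) and at a mean of at least 5 FPKM (adjusted p = 0.0690). In the authors' deposited table its q-value was 0.0741.

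None of the 20 synthetases passed by edgeR with the block, against 6.9% of all genes tested. Vars, 1 of the 20, passed when no filter on low values was applied, a setting for which no share of all genes is given. By edgeR with the block 20 of 20 had a log2 fold change below 0, but 17 with scaling to total fragments alone (not Cars, Sars and Tars) and 19 among genes with a mean of at least 5 FPKM (not Tars). The values ran from −0.44 to −0.01 with a median of −0.15, against a median of 0.01 over all genes tested. In run 1 alone 20 of 20 were lower in the library labelled Gata3(g/g), with a median difference of −0.20 in log2 CPM, where 49.8% of all genes were lower. In run 2 alone 15 of 20 were lower, with a median of −0.11, where 48.2% of all genes were lower. Lower in both runs were 15 of 20 (75%), against 31.3% of all genes. Over the 31 tested genes, 20 were lower in both runs and 2, Cebpg and Sesn1, higher in both, against 33.1% of all genes higher in both. The median of the synthetases kept its sign with scaling to total fragments alone, at −0.10 with the block beside 0.06 for all genes. In the model without the block it was −0.15. With a library omitted the runs are no longer balanced over the genotypes, and the median moved. It was −0.35 without Gata3(g/g) replicate 1, −0.00020 without Gata3(g/g) replicate 2, 0.06 without WT replicate 1 and −0.34 without WT replicate 2.

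Vars, the valine enzyme, had the largest difference among the synthetases by edgeR with the block. It measured 44.0 and 40.1 FPKM in the Gata3(g/g)-labelled libraries, against 53.4 and 60.8 FPKM in WT, so the genotypes did not overlap. Its log2 fold change was −0.44 ± 0.136 (SE, edgeR adjusted p = 0.0691). Nars (asparagine) stood at 32.2 and 29.6 FPKM in the Gata3(g/g)-labelled libraries, against 37.4 and 38.8 FPKM in WT, again without overlap, and its log2 fold change was −0.30 (edgeR adjusted p = 0.168). Wars (tryptophan) was the third synthetase without overlap, at 16.2 and 17.1 FPKM in the Gata3(g/g)-labelled libraries, against 19.3 and 24.3 FPKM in WT (log2 fold change −0.26, edgeR adjusted p = 0.274). Gata3(g/g) was lower without overlap in 3 of 20 synthetases (15%), near the 14.8% of all genes tested. Gars, the glycine enzyme of both the cytosol and mitochondria, differed by −0.34 ± 0.123 (SE, edgeR adjusted p = 0.108), and the within-run values were −0.29 and −0.40, although its libraries overlapped between the genotypes.

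Over the 8 synthetases of the multi-synthetase complex the log2 fold change with the block ran from −0.24 to −0.09 with a median of −0.15, and over the 12 others from −0.44 to −0.01 with a median of −0.13. Lower in both runs were 7 of the 8 and 8 of the 12, and the 3 genes without overlap were among the 12. The scaffold protein gene Aimp2, which is not a synthetase, measured 51.0 and 38.2 FPKM in the Gata3(g/g)-labelled libraries, against 66.9 and 53.4 FPKM in WT. Its log2 fold change of −0.43 ± 0.128 (SE) did not pass (edgeR adjusted p = 0.0509), and the scaffold genes Aimp1 (−0.02) and Eef1e1 (−0.20) did not pass either. Of 17 mitochondrial synthetases, which serve a separate ribosome, 0 passed by edgeR with the block, against 6.9% of all genes tested. Below 0 were 13 of the 17, against 48.7% of all genes (12 with scaling to total fragments alone), and the median was −0.14. The median over the 5 synthetases with an amino acid response motif was −0.24, and over the 8 with a window but no motif −0.13, which overlap widely, from −0.34 to −0.01 against −0.24 to −0.05.

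**Figure D2:**
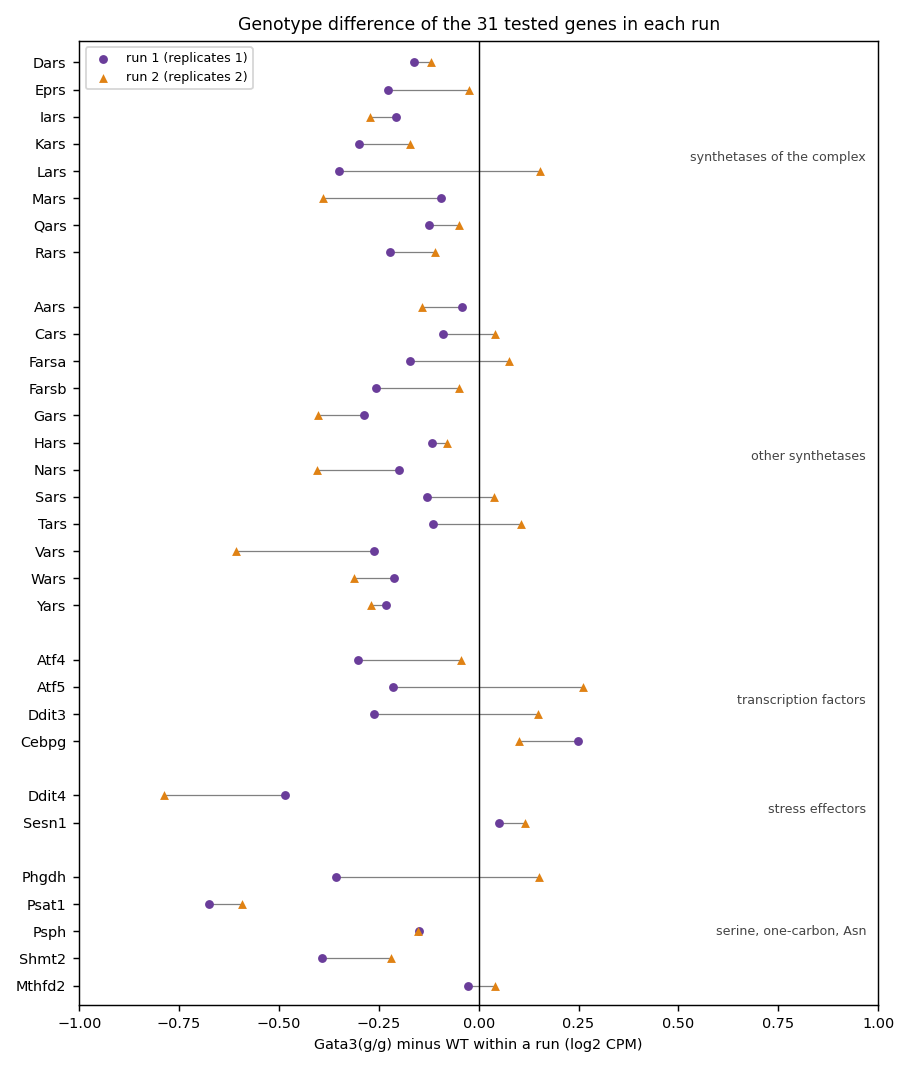
Difference in log2 CPM between the library labelled Gata3(g/g) and the WT library of the same run, for the 31 tested genes, with circles for run 1 and triangles for run 2. The 20 synthetases lie left of 0 in run 1 and 15 of them in run 2, and Psat1 and Ddit4 lie farthest to the left over both runs.

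**Figure D3:**
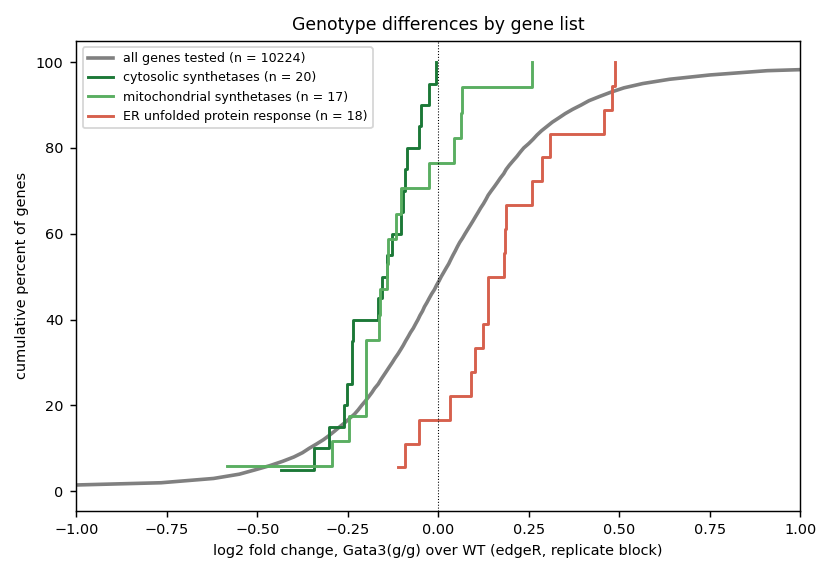
Cumulative percent of genes against the log2 fold change of Gata3(g/g) over WT by edgeR with the block, for all genes tested and 3 gene lists. The curve of the 20 cytosolic synthetases (median −0.15) and that of the 17 mitochondrial ones (median −0.14) lie left of that of all genes at their middle, and the curve of 18 unfolded protein response genes (median 0.16) lies right of it.

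Psat1 was the one enzyme of serine synthesis that passed. Phgdh, which catalyses the first step, stood at 62.2 and 29.2 FPKM in the Gata3(g/g)-labelled libraries, against 80.7 and 26.1 FPKM in WT. The genotypes differed by −0.36 within run 1 and by 0.15 within run 2 (edgeR adjusted p = 0.707). Psph, which catalyses the last step, differed by −0.15 in each run (edgeR adjusted p = 0.579). Shmt2, the mitochondrial enzyme that passes a carbon from serine to folate, measured 76.3 and 60.2 FPKM in the Gata3(g/g)-labelled libraries, against 101 and 69.5 FPKM in WT. Its log2 fold change was −0.31 ± 0.126 (SE, edgeR adjusted p = 0.169), and the within-run values were −0.39 and −0.22. Mthfd2, the next mitochondrial enzyme, was at 26.5 and 16.6 FPKM in the Gata3(g/g)-labelled libraries, against 27.3 and 16.0 FPKM in WT, a log2 fold change of 0.01.

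In the wider one-carbon cycle, 2 of 11 tested genes fell and 0 rose by edgeR with the block, against 2.99% and 3.9% of all genes. They were Shmt1 and Mthfd1, the cytosolic counterparts of the mitochondrial pair. Shmt1 measured 25.4 and 17.8 FPKM in the Gata3(g/g)-labelled libraries, against 36.0 and 26.2 FPKM in WT (log2 fold change −0.53 ± 0.129, SE, edgeR adjusted p = 0.0188). Mthfd1 measured 18.3 and 16.6 FPKM in the Gata3(g/g)-labelled libraries, against 25.8 and 22.9 FPKM in WT (−0.48 ± 0.123, SE, edgeR adjusted p = 0.0266). Neither overlapped between the genotypes. Tyms, the thymidylate synthase, differed by 0.01 and did not pass. The median over the 11 genes was −0.10.

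Among the transcription factors of the stress response, none of Atf4, Atf5, Ddit3 and Cebpg passed, against 6.9% of all genes tested. Atf4 had a log2 fold change of −0.17 ± 0.128 (SE, edgeR adjusted p = 0.476), and the within-run values were −0.30 and −0.04. Atf5, a related factor, was low, at 2.01 and 1.44 FPKM in the Gata3(g/g)-labelled libraries, against 2.39 and 1.18 FPKM in WT. Cebpg, the partner of ATF4, was the one factor without overlap, at 11.1 and 9.50 FPKM in the Gata3(g/g)-labelled libraries, against 9.41 and 8.81 FPKM in WT (0.18 ± 0.132, SE, edgeR adjusted p = 0.490). Of all genes tested, 14.2% were higher without overlap in the Gata3(g/g)-labelled libraries and 14.8% lower. Sesn1, a stress-induced inhibitor of mTORC1 signalling that p53 also controls, stood at 21.3 and 25.5 FPKM in the Gata3(g/g)-labelled libraries, against 20.8 and 23.5 FPKM in WT. Its genotypes overlapped.

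Upstream of ATF4, 16 genes for the eIF2 kinases, eIF2, its exchange factor eIF2B and its phosphatase were tested. By edgeR with the block 0 of the 16 passed, against 6.9% of all genes tested. Eif2ak4, which encodes the amino acid sensor GCN2, differed by 0.03 and Eif2ak3, which encodes the endoplasmic reticulum sensor PERK, by −0.16. Of the 14 tested ATF4 targets outside the 34 genes, 2 fell and 0 rose, against 2.99% and 3.9% of all genes. They were Slc7a5 and Slc3a2, the paired subunits of the transporter of large neutral amino acids. Slc7a5 measured 19.3 and 15.9 FPKM in the Gata3(g/g)-labelled libraries, against 34.7 and 22.8 FPKM in WT, a log2 fold change of −0.68 ± 0.128 (SE, edgeR adjusted p = 0.00298). Slc3a2 measured 33.8 and 20.7 FPKM in the Gata3(g/g)-labelled libraries, against 48.6 and 26.8 FPKM in WT (edgeR adjusted p = 0.0374), and its genotypes overlapped. Slc38a2, a transporter of small neutral amino acids, was higher in value in both runs (0.44, edgeR adjusted p = 0.101). The list had a median log2 fold change of −0.22.

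Genes of the other arms of the unfolded protein response are set beside the ATF4 arm here. Of 18 tested, 2 rose and 0 fell by edgeR with the block, against 3.9% and 2.99% of all genes. Above 0 were 15 of the 18, against 51.3% of all genes, and the median log2 fold change was 0.16. Higher in both runs were 11 of the 18, against 33.1% of all genes, and 2 were lower in both, against 31.3%. Xbp1, the factor spliced by the sensor IRE1, measured 109 and 64.7 FPKM in the Gata3(g/g)-labelled libraries, against 80.3 and 45.4 FPKM in WT (0.48 ± 0.122, SE, edgeR adjusted p = 0.0245). Dnajc3, which inhibits eIF2 kinases, rose by 0.46 ± 0.129 (SE, edgeR adjusted p = 0.0419). The libraries of Xbp1 and those of Dnajc3 overlapped between the genotypes. Hspa5, the chaperone BiP, differed by 0.09 and did not pass. With scaling to total fragments the median of these genes was 0.21 and that of all genes 0.06.

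Among 8 genes of MYC and its partners, whose protein binds the E-box, Myc and the antagonist gene Mxd4 fell and Mycn rose by edgeR with the block, against 2.99% and 3.9% of all genes. Myc measured 133 and 143 FPKM in the Gata3(g/g)-labelled libraries, against 212 and 325 FPKM in WT, without overlap (log2 fold change −0.93 ± 0.175, SE, edgeR adjusted p = 0.00308). The median over the list was −0.26. The 4 synthetases with an E-box in the promoter window had log2 fold changes from −0.24 to −0.01 with a median of −0.12.

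**Figure D4:**
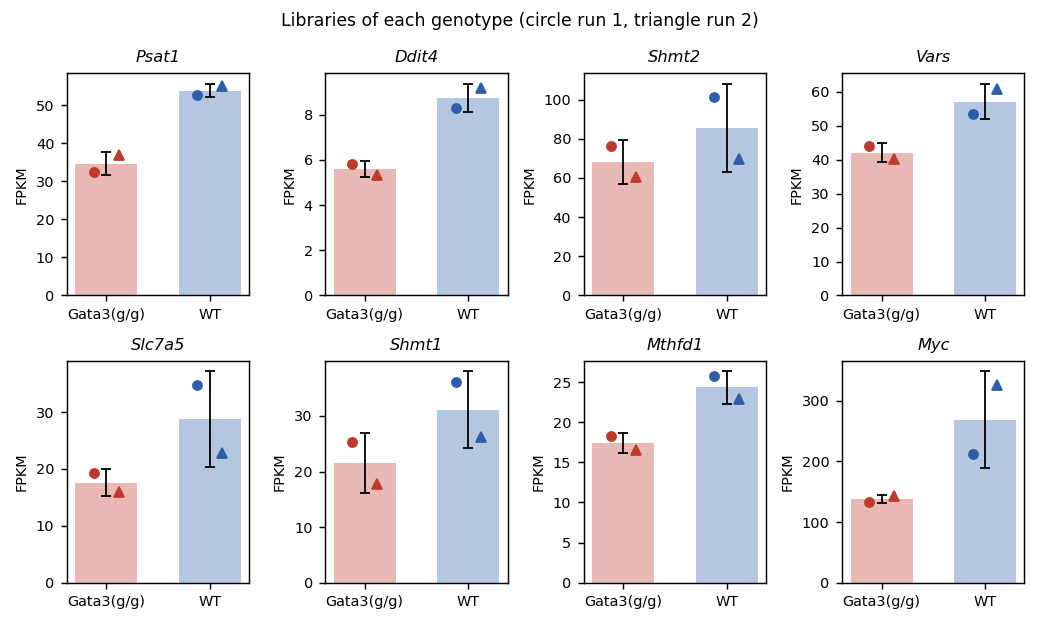
FPKM in each library of Psat1, Ddit4, Shmt2, Vars, Slc7a5, Shmt1, Mthfd1 and Myc, with bars for the mean, error bars for the SD (n = 2) and symbols for the run. The libraries labelled Gata3(g/g), on the left of each panel, lie under both WT libraries except for Shmt2, where the genotypes overlap.

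More of these genes passed between the sequencing runs than between the genotypes. With genotype kept in the model, edgeR called 18 of the 31 (58.1%) between the runs, against 34.8% of all genes tested. Of these 17 were lower in run 2 and 1 higher, against 17.3% and 17.5% of all genes. The run is a batch, and what differed between the runs beside the sequencing is not given in the labels. With no genotype term 4 of 31 passed, against 7.35% of all genes. Among the synthetases 12 of 20 were lower in run 2, and the median over the 20 was −0.48, against −0.01 over all genes. Farsa was lowest, at −0.95 ± 0.140 (SE), with 14.0 FPKM in run 2, against 24.9 FPKM in run 1, in the Gata3(g/g)-labelled libraries, and 13.2 FPKM in run 2, against 28.4 FPKM in run 1, in WT. Dars went the other way, with 0.49 ± 0.151 (SE, edgeR adjusted p = 0.0181), and Aars, Eprs, Lars, Rars, Nars, Vars and Wars did not pass.

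Phgdh had the largest run difference of the 31. It stood at 29.2 FPKM in run 2, against 62.2 FPKM in run 1, in the Gata3(g/g)-labelled libraries, and at 26.1 FPKM in run 2, against 80.7 FPKM in run 1, in WT (−1.34 ± 0.139, SE, edgeR adjusted p = 3.53e-06). Atf4 (−0.72), Ddit3 (−0.70) and Mthfd2 (−0.70) were lower in run 2 as well. Psat1 (0.14) and Ddit4 (0.03), the genes that passed between the genotypes, did not pass between the runs. Asns had 6 and 8 fragments in the run 2 libraries, against 48 and 60 fragments in those of run 1.

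Immediate-early and erythroid genes also differed between the runs. The 8 immediate-early genes, which respond within minutes to handling or signals, summed to 53.4 and 42.3 FPKM in the run 2 libraries, against 464 and 661 FPKM in those of run 1, with none at 0. The 6 erythroid markers summed to 587 and 460 FPKM in run 2, against 2.19 and 1.21 FPKM in run 1, where 3 of the 6 were listed at 0 in each library. Of the 6, Hba-a2 passed between the genotypes (edgeR adjusted p = 0.0275), with 30.4 FPKM in Gata3(g/g) replicate 2, against 10.7 FPKM in WT replicate 2, and was listed at 0 in both run 1 libraries. Ppp1r15a, the ATF4-induced subunit of the eIF2 phosphatase, was lower in run 2 as well, at −2.95 ± 0.221 (SE, edgeR adjusted p = 8.44e-08). Their part in the run differences of the 31 genes was not tested. Immediate-early genes passed between the genotypes too, in the model that called Psat1 and Ddit4. Of 7 tested, 3 fell (Fosb, Junb and Egr1, each lower within both runs) and 1 rose (Jun, higher within both), against 2.99% and 3.9% of all genes. Junb had a log2 fold change of −1.06 ± 0.167 (SE, edgeR adjusted p = 0.000650) and Jun one of 0.76 ± 0.182 (SE, edgeR adjusted p = 0.0176). Their part in the genotype differences was not tested. Within a run the immediate-early sum was 464 FPKM in the library labelled Gata3(g/g), against 661 FPKM in WT, for run 1, and 53.4 FPKM in the library labelled Gata3(g/g), against 42.3 FPKM in WT, for run 2. With 1 library of each genotype in a run, the difference between the runs in the effect of the genotype cannot be tested.

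**Figure D5:**
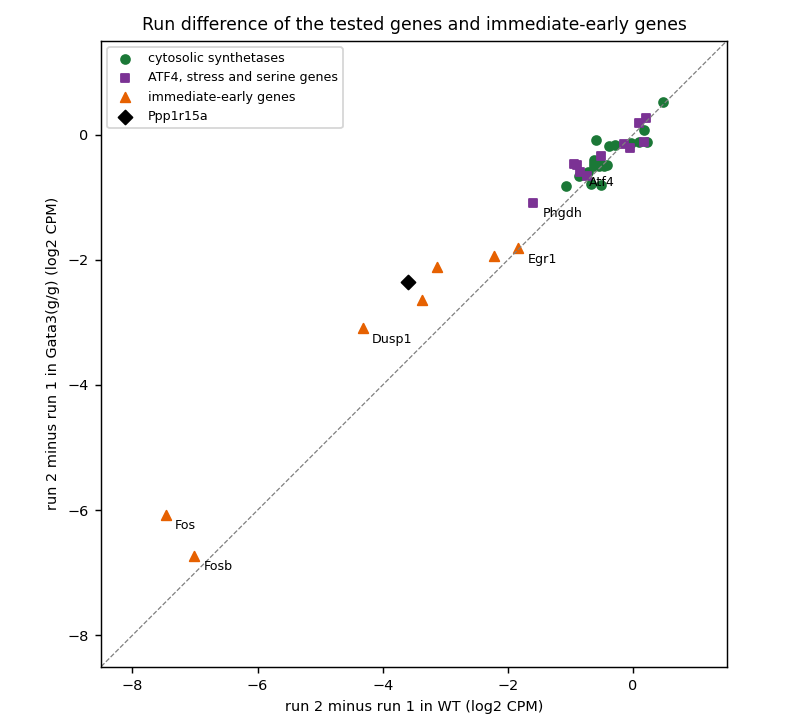
Difference in log2 CPM between run 2 and run 1 in the Gata3(g/g)-labelled libraries (y axis) and in WT (x axis) for the 20 synthetases, the other 11 tested genes, 7 immediate-early genes and Ppp1r15a, with the dashed line at equality. Most synthetases lie below 0 on both axes, with a median run difference of −0.48, Phgdh lies lowest of the 31, and the immediate-early genes lie far below them.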

How the data were processed

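RNA-seq values of 4 libraries, 2 labelled Gata3(g/g) and 2 WT, were analysed. Per the labels' protocols, column-purified, DNase-treated RNA went into NuGEN Encore Complete libraries. Per the submitters' processing notes, TopHat2 2.0.8b, Bowtie2 2.1.0, Cuffdiff 2.1.1 and mm10 were used. As deposited, and per the file headers, the authors' tables hold an estimated count of fragments before scaling and an FPKM per gene and library. The authors' deposited comparison table gives q-values, p-values, log2 fold changes and group means. The sources used here name no annotation or strand setting, so overlapping and antisense genes are uncertain.

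The 3 genes marked too deep to estimate were left out. Between 97.7% and 98.9% of the estimated counts lay within 0.01 of a whole number, and they were rounded. Genes with a mean of at least 1 FPKM (10224) were tested with edgeR 4.0.16 (R 4.3.3, TMM factors 0.983 to 1.02, two-sided, Benjamini-Hochberg at 0.05). The main model held genotype alone, with 2 residual degrees of freedom. The sequence identifiers in the labels tie replicate numbers to runs, so the numbers pair the libraries. Across genes, run 2 minus run 1 in Gata3(g/g) and in WT correlated at 0.754 (Pearson). The model with this block leaves 1 residual degree of freedom. Calls, adjusted p-values, fold changes and SEs between the genotypes are from it unless stated, and counts of the main model are given beside its counts. The SE is the unshrunken log2 fold change over the square root of F. Within-run differences are log2 CPM with a prior count of 2. DESeq2 1.42.0 and limma 3.58.1 (pseudocount 1 or 0.1, which understates changes of low genes) were alternatives, beside other scaling, filters, and leaving out each library. With these totals 3 fragments equal 0.112 to 0.209 CPM, for counting error only. Promoter windows are RefSeq's, of GRCm38.p6, and some matches and genes are not reported here. The models were tested on simulated counts. In these the main model met no run effect and the genotype effect was the same in each run, so they do not show error rates for these data.

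The 34 genes and the lists were chosen with earlier results of these data known. Named were the 34 genes, up to 6 genes of each further list that passed with the block, the altered gene and markers. Aimp1, Aimp2, Eef1e1, Tyms, Eif2ak3, Eif2ak4, Slc38a2, Slc7a11, Sesn2, Sesn3, Mtor, Hspa5 and Ppp1r15a were named after their values were seen.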

Additional observations from a re-analysis of the deposited data

How the results depend on the processing

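Without the block the count of genes called between genotypes stayed at 0 of 31 under the other scalings, filters, DESeq2, limma and the omission of each library (0 to 0), and the replicate block raised it to 2. With the block it was 2 with DESeq2 size factors and 3 with no filter, and it fell to 1 with scaling to total fragments, 1 at a mean of at least 5 FPKM, 1 by DESeq2 and 0 by limma. Between runs, 18 passed by DESeq2 and with total fragments, and 4 with no genotype term. Shares of all genes under the other scalings and filters, and by DESeq2 between runs, are not given. Counts under those settings therefore cannot be set against all genes. The cause of the changes in count was not tested. The median of the 20 synthetases was −0.15 without the block and ran from −0.348 to 0.0571 as each library was left out, and that of the 5 tested serine and one-carbon enzymes was −0.21 and ran from −0.553 to −0.0535. Under the other settings both stayed below 0. Of single genes, Mthfd2 turned from about 0 to 0.0064 with the block, 0.0161 at 5 FPKM, 0.0476 with total fragments, 0.0030 by limma and 0.0036 by limma with a pseudocount of 0.1. With total fragments Cars (0.012), Tars (0.0233) and Atf5 (0.011, also 0.0134 by limma with a pseudocount of 0.1) turned. Leaving out 1 library of an unpaired model turned 19 of the 31, among them 13 synthetases. Their ranges were −0.42 to 0.12 for Dars, −0.32 to 0.0587 for Eprs, −0.58 to 0.14 for Kars, −0.40 to 0.19 for Lars, −0.67 to 0.14 for Mars, −0.34 to 0.18 for Qars, −0.32 to 0.30 for Cars, −0.56 to 0.53 for Farsa, −0.55 to 0.31 for Farsb, −0.78 to 0.034 for Gars, −0.37 to 0.18 for Hars, −0.34 to 0.27 for Sars, −0.31 to 0.31 for Tars, −0.57 to 0.27 for Atf4, −0.43 to 0.52 for Atf5, −0.49 to 0.41 for Ddit3, −0.0537 to 0.21 for Sesn1, −0.86 to 0.78 for Phgdh, −0.37 to 0.40 for Mthfd2. No fit with the block could be had without a library, since it leaves no residual degrees of freedom. Low counts limit Asns, Chac1 and Trib3.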

Other observations

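Genes of the sestrins and of amino acid sensing by mTORC1, which responds to the amino acids that the synthetases use, were tested for 15 of 18 listed. By edgeR with the block 0 passed, against 6.9% of all genes tested, and the median log2 fold change was −0.06. Sesn3, a sestrin gene named after its values were seen, measured 6.42 and 5.91 FPKM in the Gata3(g/g)-labelled libraries, against 4.49 and 4.50 FPKM in WT, without overlap, and did not pass (0.46 ± 0.171, SE, edgeR adjusted p = 0.122). Mtor itself differed by −0.14.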
